A study of Mus musculus with 78 samples.

Results

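The transcripts followed here were those of 38 genes of the cell division cycle, measured in the lung of 78 mice that slept, were kept awake, or were killed at lights on. A gene entered through a probe set whose annotation held its symbol and no other, and where several probe sets did so, the one with the highest mean over all arrays was used. By this rule 32 of the 38 genes were measured, out of 18820 genes with such a probe set on the array. Ccnb1, Kif20a, Nusap1, Foxm1, Ccne2 and Tyms were not analysed here. The 32 genes were 10 mitotic kinases and cyclins, 9 genes of the spindle, kinetochore and cytokinesis, 3 genes of chromosome separation and proliferation (Mki67, Top2a and Cdc20), 8 replication licensing genes, and Ccne1 and Rrm2 of the G1/S transition.

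All mice were male C57BL/6 J animals (labelled C57BL\6) of about 10 weeks, without transgene or drug, kept in a 12 h light and 12 h dark cycle and fed only in the dark phase. The baseline group held 9 undisturbed mice killed at lights on. Spontaneously sleeping mice were left undisturbed from lights on and were killed after 3 h (9 mice), 6 h (7 mice), 9 h (9 mice) or 12 h (9 mice). Sleep-deprived mice were kept awake by gentle handling from lights on and were killed after 3 h (9 mice), 6 h (9 mice), 9 h (9 mice) or 12 h (8 mice). Each mouse gave 1 array of whole lung RNA, and levels are log2 intensities, so a difference of 1 is a doubling. Sleep and physical rest were not separated by this design. In whole lung, fewer cells of a type and less RNA per cell cannot be told apart.

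A cell that divides first licenses its replication origins, where Cdc6 helps to load the ring of Mcm2 to Mcm7 proteins onto DNA. Cyclin E, encoded by Ccne1, then drives entry into S phase, and ribonucleotide reductase, of which Rrm2 encodes a subunit, supplies DNA building blocks. In G2 and mitosis Cdk1 with its cyclins, the Aurora and Polo kinases, motor proteins and the spindle checkpoint take over. Genes of the first set are known targets of E2F factors, and many of the second are controlled through CCAAT boxes and the cell cycle homology region (CHR) close to the start of transcription. Most cells of the adult lung are not dividing at rest.

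The promoters below show the letters behind these classes in members of different roles, including Bub1 and Ccne1, which have a slope over the hours of sleep past the threshold. RefSeq promoters (GRCm38.p6, 250 bases before to 50 after the start, the first listed promoter of a gene) were matched for 28 of the 32 measured genes, and none was matched for Ccna2, Aurkb, Tpx2 and Mcm4. The 150 bases before the start are printed 5′ to 3′ on the strand of the gene, in lower case. All 6 genes lie on the minus strand, with the stretches at chr10:69352913-69353062 (Cdk1), chr4:118437344-118437493 (Cdc20), chr11:99024190-99024339 (Top2a), chr1:128359706-128359855 (Mcm6), chr2:127831860-127832009 (Bub1) and chr7:38107491-38107640 (Ccne1). Capitals mark, on either strand, the letters searched for. For the CHR these were TTTGAA as well as its variant TTTAAA, for the CCAAT box they were the name itself, and for E2F they were TTCCCGC along with 3 variants, namely TTGGCGC and then the related TTCGCGC and finally the related TTGCCGC. Of these TTTAAA reads the same on both strands, and the E2F words of Mcm6 overlap in pairs.
Cdk1: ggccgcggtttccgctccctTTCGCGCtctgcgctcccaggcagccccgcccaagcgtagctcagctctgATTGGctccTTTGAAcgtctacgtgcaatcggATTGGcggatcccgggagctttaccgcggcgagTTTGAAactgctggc
Cdc20: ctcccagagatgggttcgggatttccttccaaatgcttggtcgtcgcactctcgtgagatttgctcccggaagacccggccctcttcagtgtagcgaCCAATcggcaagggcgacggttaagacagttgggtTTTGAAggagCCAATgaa
Top2a: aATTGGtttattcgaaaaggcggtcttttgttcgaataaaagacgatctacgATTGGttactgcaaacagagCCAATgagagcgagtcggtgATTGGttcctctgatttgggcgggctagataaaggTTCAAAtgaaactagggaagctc
Mcm6: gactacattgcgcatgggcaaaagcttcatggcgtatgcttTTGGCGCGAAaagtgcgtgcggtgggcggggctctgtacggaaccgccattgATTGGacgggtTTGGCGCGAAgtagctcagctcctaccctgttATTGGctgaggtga
Bub1: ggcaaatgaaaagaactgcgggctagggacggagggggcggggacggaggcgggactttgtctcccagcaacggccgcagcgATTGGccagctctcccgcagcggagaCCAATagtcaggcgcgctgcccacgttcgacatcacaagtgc
Ccne1: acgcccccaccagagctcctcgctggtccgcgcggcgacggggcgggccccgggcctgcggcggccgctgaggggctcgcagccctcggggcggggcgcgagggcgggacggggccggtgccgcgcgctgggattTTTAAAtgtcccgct

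Cdk1 and Cdc20, which drive entry into and exit from mitosis, and the chromatid-untangling topoisomerase Top2a each hold a CHR word and CCAAT words. Cdk1 also holds an E2F word. The helicase gene Mcm6 holds E2F and CCAAT words. Ccne1 holds a CHR word, of the variant TTTAAA, and no CCAAT or E2F word of these spellings. Bub1 holds CCAAT words and no CHR or E2F word of this spelling in the printed stretch. Over the whole windows, a CHR word was found in 21 of the 28 promoters of members (75%) and in 27.8% of the promoters of 27025 genes. CCAAT was found in 22 of 28 (78.6%) against 37.9% of all. E2F words were found in 8 of 28 (28.6%) against 9.69% of all. By role, 5 of the 7 licensing genes with a promoter held an E2F word and 0 of the 8 spindle genes, while a CHR word was in 3 and 7 of them. These are letter matches, which show no binding in these mice.

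Lung transcripts were high on every array, with the surfactant gene Sftpc between 13.08 and 13.37 and the endothelial gene Cdh5 between 11.93 and 12.43. By the serial numbers in the array titles, array 81 stands where number 9 is missing, and so read every label forms unbroken stretches. In a second reading, the sequence of labels was laid along the array numbers, with no place for 9 and places kept for later missing numbers. This layout was chosen here and is not given by the titles. On it 15 arrays fall on another condition than their label. By 200 probe sets, all 15 were nearest to the group given by this layout and 0 to their labelled group. Because the titles do not give the layout, the array numbers are no separate evidence that these labels are wrong. Of the 62 arrays taken as undoubted, 59 resembled their labelled group most. The layout leaves arrays 80 and 81 without a condition. Array 80 was nearest to its labelled group and is among the 62, while array 81 was nearest to another group. With array 81, 16 labels are in doubt. These 16 arrays lie in all 9 groups. Labels were used as given, and values without the 16 arrays are given for the slopes of the called members, for several counts, and where leaving them out changed the call of a gene named here. The array numbers form 4 runs, of which 2 hold only 9 h and 12 h mice and 2 hold 3 h and 6 h mice, with all baseline mice in 1 of them. Sleep-deprived and sleeping mice of an hour share runs, but between early and late hours the run and the hour cannot be told apart.

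The mean level of a member over the 78 mice ran from 4.26 (Ttk, a spindle checkpoint kinase) to 8.96 (Mcm7). Within groups the SD between mice ran from 0.11 (Mcm4) to 0.37 (Top2a), with a median over members of 0.23. Without array 27, a mouse deprived for 12 h that is described further on, the median SD was 0.17 and the highest was 0.28 (Bub1). Probe sets of different genes differ in response, so levels were compared only within a gene.

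No cell cycle gene passed the test of behavioral state. Between 35 sleep-deprived and 34 sleeping mice of all hours, 0 of the 32 genes had a limma adjusted p under 0.01, while 5.59% of all 35556 probe sets had one. At an unadjusted p under 0.05 there were 3 genes, against 9263 of the 35556 probe sets. The median difference over the members was 0.04 with 23 of 32 above 0, and over all probe sets it was 0.00. Without array 27, 16 of 32 were above 0. Every 95% interval lay between -0.23 (the lower bound for Ccnb2) and 0.47 (the upper bound for Bub1), and apart from Bub1 the highest bound was 0.27 (Top2a).

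The 3 genes with an unadjusted p under 0.05 were Mcm7, Bub1 and Ccne1. Mcm7, a subunit of the replicative helicase, had a difference of 0.12 ± 0.04 (SE), with an adjusted p of 0.0298, and was higher in deprived mice in each of the 4 runs (0.16, 0.20, 0.10 and 0.03). It passed the threshold with the runs as a block (0.12, adjusted p 0.00977) and without the 16 arrays (0.16, adjusted p 0.00839). Bub1, a kinase of the spindle checkpoint, had a difference of 0.28 ± 0.10 (adjusted p 0.0507), and within the 4 runs it was 0.27, 0.25, 0.18 and 0.33. Run 2 holds array 27, without which the value in that run was 0.05 for Bub1 and 0.11 for Mcm7. Ccne1 had a difference of -0.12 ± 0.04 (adjusted p 0.076), and was lower in deprived mice in every run.

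Aurka, Cenpf and Mcm3 came next by p. Aurka, the kinase of spindle poles, had a difference of 0.09 ± 0.06 (adjusted p 0.308), with group medians between 5.89 and 6.06. Cenpf, a kinetochore protein, had one of 0.09 ± 0.06 (adjusted p 0.339), with group medians between 5.28 and 5.45. Mcm3 had one of -0.06 ± 0.04 (adjusted p 0.322), with group medians between 7.32 and 7.63. For these 3 genes sleeping and deprived mice overlapped at every hour.

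**Figure D1:**
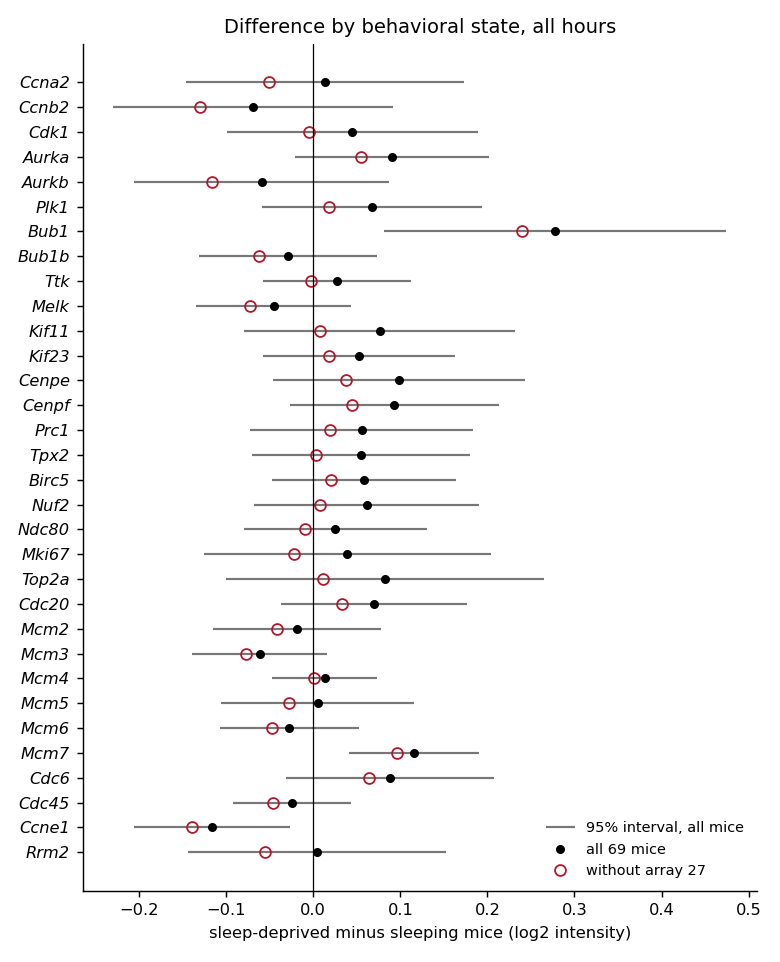
Difference between sleep-deprived and sleeping mice of all hours for each of the 32 genes (x axis, log2 intensity), with 95% intervals of the fit and, as open circles, the value without array 27. The intervals of 29 genes cross 0, and those of Bub1, Mcm7 and Ccne1 do not.

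Hour by hour, no member passed the test either. At 3 h, 0 of 32 members were called by limma against 6.11% of all probe sets. An unadjusted p under 0.05 was found for 3 (Bub1, Ccne1 and Mcm3), against 9106 of 35556 probe sets. For Bub1 at 3 h the lowest, median and highest levels were 6.28, 6.90 and 7.14 in sleeping and 6.61, 7.32 and 7.42 in deprived mice, a difference of 0.40 ± 0.15 (adjusted p 0.076). Most deprived mice were higher, and the groups overlapped. For Ccne1 at 3 h they were 6.32, 6.39 and 6.86 in sleeping and 6.09, 6.27 and 6.54 in deprived mice, a difference of -0.18 ± 0.07 (adjusted p 0.0919).

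At 6 h, 0 of 32 members were called by limma (0.0591% of all probe sets). An unadjusted p under 0.05 was found for 0, against 3822 of 35556 probe sets. At 9 h, 0 of 32 were called (2.56% of all). An unadjusted p under 0.05 was found for 1, against 8625 of 35556 probe sets. That member was Ccnb2, which encodes cyclin B2 (-0.33 ± 0.15, adjusted p 0.145). Of the 32 differences at 9 h 26 were below 0, with a median of -0.09. Without the 16 arrays 23 were below 0, with a median of -0.06.

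At 12 h the values turned on 1 mouse. By limma 0 of 32 members were called (0.0816% of all probe sets), yet 30 of 32 had a difference above 0, with a median difference of 0.19. An unadjusted p under 0.05 was found for 11 of 32, against 2653 of 35556 probe sets. Without array 27 the median was 0.01, and 19 of 32 were above 0. The median over the 9 spindle and kinetochore genes was 0.26 with and 0.03 without that array. Mcm7 at 12 h had levels of 8.80, 8.91 and 9.02 in sleeping mice and 9.02, 9.10 and 9.72 in deprived mice, so the groups met only at their ends. Its difference was 0.28 ± 0.06 (adjusted p 0.0292), 0.20 without array 27 (adjusted p 0.144), and 0.35 without the 16 arrays (adjusted p 0.00438), the last of which passed. The test of whether the difference changed over the hours called 0 of 32 members by limma (0.0562% of all probe sets). An unadjusted p under 0.05 was found for 1 member, against 5978 of 35556 probe sets.

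**Figure D2:**
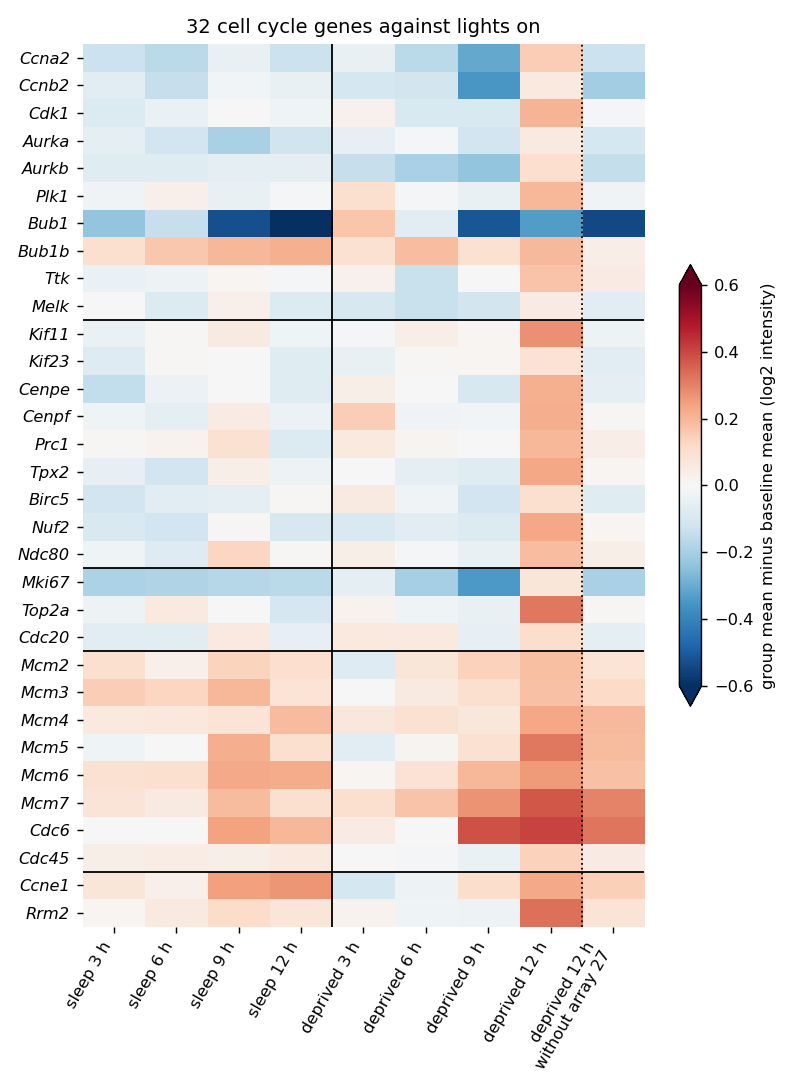
Group mean minus baseline mean (colour, log2 intensity) for the 32 genes in rows, grouped by role, in the 8 later groups and, in the last column, in mice deprived for 12 h without array 27. The column of 12 h deprivation is above baseline for most genes and loses much of that without the array. Bub1 lies below baseline at every hour of sleep and at 9 h and 12 h of deprivation.

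Array 27 stood apart in nearly the whole program of division. Its mean over the 32 members, each relative to its own mean over all mice, was 1.39, while the 77 other mice lay between -0.22 and 0.34. It held the highest value of all 78 arrays for 31 of the 32 members, the exception being Mcm6, which was highest in array 28. Top2a was at 8.90 against 6.41 ± 0.15 (SD) in the other 7 mice of the group. Kif11, the motor that separates spindle poles, was at 8.69 against 6.25 ± 0.14. Mki67, the marker of cycling cells, was at 9.59 against 7.46 ± 0.15. All 3 lay far outside the spread of their group.

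The excess in array 27 differed by role. The list means were 1.94 for Mki67, Top2a and Cdc20, 1.64 for spindle and kinetochore genes, 1.53 for mitotic kinases and cyclins, 1.37 for Ccne1 and Rrm2, and 0.74 for the licensing genes. Against the rest of its group, the smallest excess was 0.31 (Mcm4) and the largest was 2.49 (Top2a). These values come from 1 mouse, so they have no test.

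The same array held the highest value of all mice for 9 of 9 measured genes of thymus and immature T cells. Their mean was 3.86, against -0.47 to 1.61 in the other mice. Dntt, the polymerase of antigen receptor rearrangement in immature lymphocytes, was at 9.56 against 3.54 to 6.62 in the other mice. Rag2, part of the recombinase of such cells, was at 6.94 against 3.36 to 4.72. Of B cell genes 0 of 9 and of lung epithelial and endothelial genes 0 of 13 were highest in this array. Array 28 came next in both means, with 0.34 for members and 1.61 for thymus genes. It is labelled as sleep for 9 h, but in the layout along the array numbers described above it falls on 12 h of deprivation. The part of immature T cells in the levels of members was not tested.

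Array 69, deprived for 3 h, had a member mean of 0.33 with a thymus mean of -0.11. Its spindle and kinetochore genes had a mean of 0.40, and its licensing genes one of 0.01. Array 68, of the same group, had a member mean of 0.20 with a thymus mean of -0.08. There the spindle and kinetochore genes had 0.28 and the licensing genes -0.07.

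**Figure D3:**
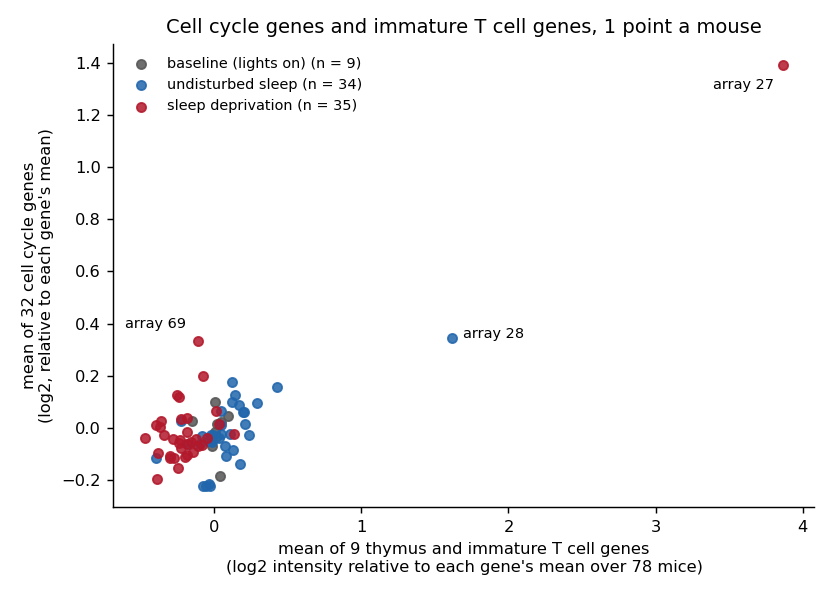
Each point is a mouse, with the mean of 9 thymus and immature T cell genes on the x axis and the mean of the 32 cell cycle genes on the y axis, both as log2 intensity relative to each gene's mean over all mice. Array 27 lies far from the others at 3.86 and 1.39, array 28 is next at 1.61 and 0.34, and array 69 is at -0.11 and 0.33.

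The members that passed a test did so over the hours after lights on. Among the 9 groups, 6 of the 32 members differed at a limma adjusted p under 0.01, against 25.1% of all probe sets. They were Mcm4, Mcm6, Mcm7, Cdc6, Ccne1 and Bub1. Over the hours of sleep, fitted from baseline to 12 h, 2 of 32 members had a slope past the threshold against 5.44% of all probe sets, Ccne1 upwards and Bub1 downwards. Over the hours of sleep deprivation 4 of 32 had one against 8.41% of all, and these 4 were licensing genes that rose. The members' shares in these tests were 18.8%, 6.25% and 12.5%, near those of all probe sets. This depends on the labels in doubt. Without the 16 arrays the slopes called 15.6% of members over sleep (6.15% of all probe sets) and 18.8% over deprivation (9.61% of all). Without array 27 as well, the share over deprivation was 25% (10.5% of all). Both slopes share the 9 baseline mice and are not independent.

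Mcm2 to Mcm7, Cdc6 and Cdc45 make up the list called licensing genes here, and all 8 had slopes above 0 in both conditions. Their median fitted change over 12 h was 0.14 over sleep and 0.26 over deprivation, against 0.02 and 0.01 for all probe sets. Without array 27 the median over deprivation was 0.18, and the 4 called were the same genes. Without the 16 arrays the medians were 0.16 over sleep and 0.32 over deprivation. At an unadjusted p under 0.05 there were 5 of 8 over sleep and 7 of 8 over deprivation. Of all 35556 probe sets, 8005 and 10358 had such a p with all mice. Cdc45, which joins the helicase when origins fire, had the smallest of the 8 changes, 0.05 ± 0.05 over sleep and 0.09 ± 0.06 over deprivation. Within run 3 the median of the 8 genes at 6 h minus baseline was 0.08 over sleep and 0.11 over deprivation. At 6 h minus 3 h of sleep it was 0.06 in run 3 and -0.13 in run 4. At 12 h minus 9 h of sleep it was 0.06 in run 1 and -0.15 in run 2. For deprivation these were 0.11, 0.03, -0.05 and 0.25, the last with array 27. Without that array the 8 genes lay there between 0.04 (Cdc6) and 0.13 (Mcm3).

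Mcm7 had levels of 8.72, 8.82 and 8.88 (lowest, median and highest) at lights on. Its medians at 3 h, 6 h, 9 h and 12 h were 8.89, 8.87, 8.95 and 8.91 in sleeping mice and 8.94, 8.98, 9.08 and 9.10 in deprived mice. Every mouse deprived for 9 h or 12 h lay above every baseline mouse. The fitted rise over 12 h of deprivation was 0.37 ± 0.06 (adjusted p 1.80e-05), and the fitted change over sleep was 0.12 ± 0.05 (adjusted p 0.0947). Leaving out these 16 arrays gave 0.43 over deprivation (adjusted p 9.97e-06) and 0.14 over sleep (adjusted p 0.12). Mcm7 overlaps Ap4m1 and the microRNA genes Mir25, Mir93 and Mir106b, and whether its probes read them was not tested.

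Cdc6, the loader of the Mcm ring, had levels of 5.45, 5.67 and 6.03 at lights on. Its medians at 3 h, 6 h, 9 h and 12 h were 5.67, 5.62, 5.90 and 5.87 in sleeping mice and 5.73, 5.70, 6.04 and 6.02 in deprived mice. The higher medians were those of 9 h and 12 h in both conditions, and those groups overlapped with baseline. The fitted rise over deprivation was 0.46 ± 0.10 (adjusted p 0.000793), and the fitted change over sleep was 0.26 ± 0.08 (adjusted p 0.0227). Leaving out the 16 arrays gave 0.53 over deprivation (adjusted p 0.000434) and 0.29 over sleep (adjusted p 0.0268).

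Mcm6 had levels of 7.80, 8.04 and 8.19 at lights on, of 8.13, 8.23 and 8.38 after 12 h of sleep, and of 8.09, 8.21 and 8.82 after 12 h of deprivation. Its fitted rise was 0.28 ± 0.06 over deprivation (adjusted p 0.000677), and over sleep the change was 0.23 ± 0.06 (adjusted p 0.0109). With the 16 arrays left out these were 0.32 over deprivation (adjusted p 0.000807) and 0.24 over sleep (adjusted p 0.000971), and the second then passed as well. Every mouse at 12 h lay above the baseline median of Mcm6 in either condition. Mcm4 had levels of 8.05, 8.20 and 8.31 at lights on, of 8.10, 8.44 and 8.49 after 12 h of sleep, and of 8.29, 8.39 and 8.70 after 12 h of deprivation. Its fitted rise was 0.18 ± 0.05 over deprivation (adjusted p 0.00341), and over sleep the change was 0.16 ± 0.05 (adjusted p 0.0277). Without the 16 arrays its changes were 0.23 over deprivation (adjusted p 0.000773) and 0.21 over sleep (adjusted p 0.00887), with the second again past the threshold. Both encode subunits of the helicase ring.

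Ccne1 had levels of 6.13, 6.39 and 6.62 at lights on. Its medians at 3 h, 6 h, 9 h and 12 h were 6.39, 6.46, 6.64 and 6.63 in sleeping mice and 6.27, 6.33, 6.50 and 6.58 in deprived mice. Deprived mice had the lower median at each hour, and both conditions ended above the baseline median. The fitted rise over sleep was 0.28 ± 0.06 (adjusted p 0.000855), and the change over deprivation was 0.26 ± 0.07 (adjusted p 0.0114). With undoubted labels only, Ccne1 had 0.34 over deprivation (adjusted p 0.00282) and 0.32 over sleep (adjusted p 0.00056), both past the threshold.

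Bub1 went the other way, and by more. It had levels of 6.10, 7.14 and 7.36 at lights on, where the lowest mouse is array 36, whose label is in doubt. Without doubtful arrays the 7 baseline mice lay between 6.88 and 7.36. Its medians at 3 h, 6 h, 9 h and 12 h were 6.90, 6.88, 6.57 and 6.24 in sleeping mice and 7.32, 7.0, 6.59 and 6.44 in deprived mice. After 12 h of sleep the levels were 5.82, 6.24 and 6.49, all under every baseline mouse with an undoubted label. The fitted change over sleep was -0.81 ± 0.13 (adjusted p 2.39e-05), a fall. Over deprivation it was -0.55 ± 0.16 (adjusted p 0.0143) with array 27 and -0.70 (adjusted p 9.01e-05) without it, the second past the threshold. Without the 16 arrays Bub1 had -0.71 over deprivation (adjusted p 0.00193) and -0.99 over sleep (adjusted p 3.15e-07), both past it. Bub1b, which encodes the related checkpoint protein BubR1, had a fitted change of 0.21 ± 0.06 over sleep (adjusted p 0.015), which without the 16 arrays was 0.26 and passed (adjusted p 0.00511).

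**Figure D4:**
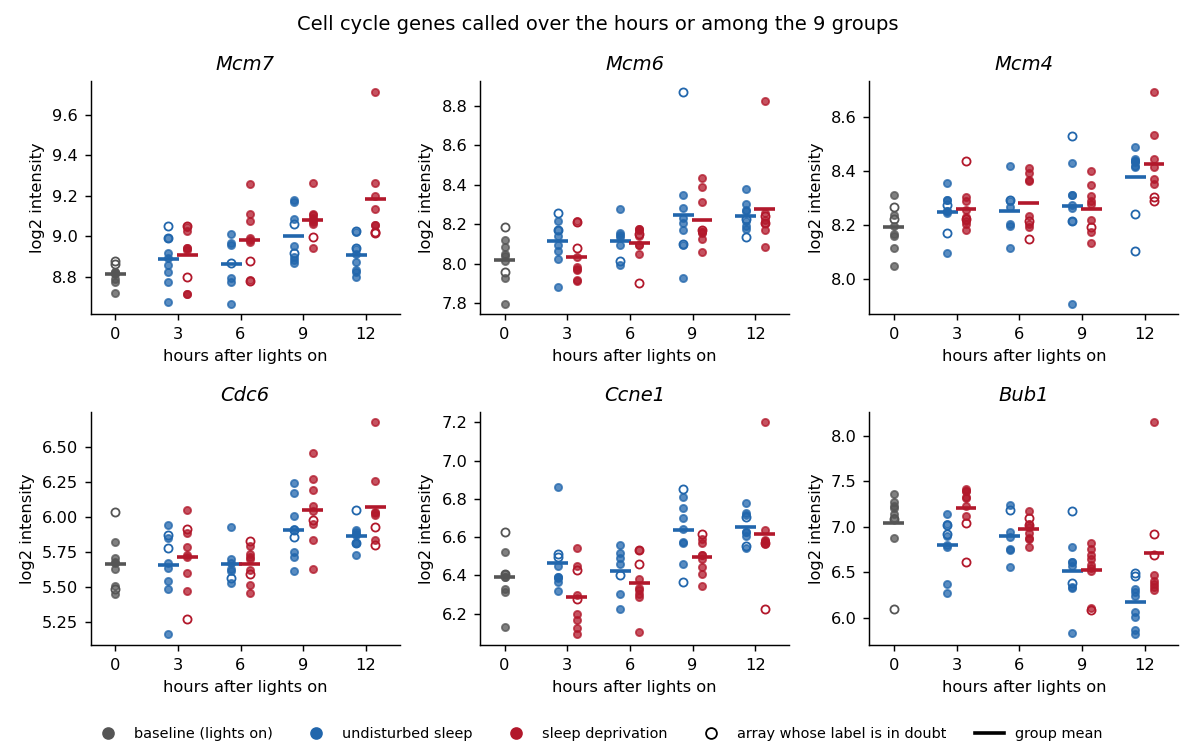
Log2 intensity against hours after lights on for the 6 genes called among the groups, 1 point a mouse. Mcm7, Mcm6, Mcm4, Cdc6 and Ccne1 end above lights on and Bub1 ends below it, and array 27 is the single high mouse at 12 h of deprivation.

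The other mitotic genes had no slope past the threshold with all mice. The median fitted change was 0.00 over sleep and 0.11 over deprivation for the 9 spindle and kinetochore genes, and -0.03 and 0.03 for the 10 mitotic kinases and cyclins. Without array 27 the medians over deprivation were -0.02 and -0.09. Ccnb2 had a fitted change over deprivation of -0.07 with that array, and of -0.28 (adjusted p 0.00882) without it, where it passed. Mki67 had -0.12 ± 0.09 over sleep and -0.08 ± 0.17 over deprivation (adjusted p 0.463 and 0.82).

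With the 4 runs as a block, limma called 0 of 32 members in the slope over sleep and 0 in that over deprivation. Of all probe sets 0 were called in either. An unadjusted p under 0.05 was found for 3 and 3 members, against 2866 and 3862 of 35556 probe sets. The fitted changes over deprivation were then 0.38 for Mcm7 (adjusted p 0.249), 0.30 for Mcm4, 0.21 for Mcm6 and 0.01 for Cdc6. For Bub1 over sleep the blocked value was -0.50. Within the 2 late runs, Bub1 at 12 h minus 9 h of sleep was -0.17 and -0.57, and for deprivation it was 0.02 and 0.33. The last value includes array 27, and without that array it was -0.09.

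Transcripts of B cells and neutrophils moved with state or hours. Beside the counts that follow, the shares of all probe sets called were 5.59% by state, 5.44% over sleep and 8.41% over deprivation. B cell genes were lower in deprived mice in 9 of 9 cases and fell over deprivation in 9 of 9, with a median slope of -0.81. Their mean ran from -0.02 to 0.64 at lights on and from -0.95 to 0.20 after 12 h of deprivation. Neutrophil genes fell in 5 of 8 cases over sleep and in 5 of 8 over deprivation, and their mean ran from -0.36 to 0.96 at lights on and from -0.35 to 0.03 after 12 h of sleep. Of alveolar macrophage genes 1 of 7 was called over sleep and 2 of 7 over deprivation, all upwards. Thymus genes (9), neutrophil and monocyte precursor genes (10) and erythroid precursor genes (8) had 0 calls by state or in either slope. Liver genes had 1 call of 10 over deprivation, near the share of all probe sets. The part of these cells in the courses of members was not tested.

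**Figure D5:**
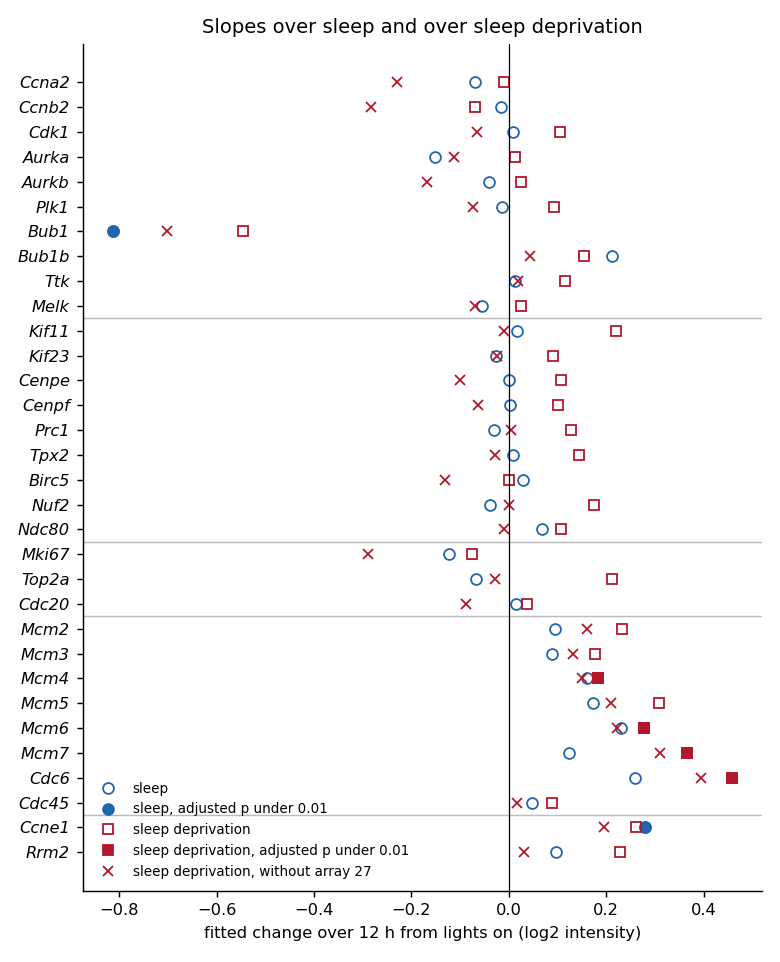
Fitted change over 12 h from lights on (x axis, log2 intensity) for each of the 32 genes over sleep and over sleep deprivation, with the value over deprivation without array 27. Licensing genes lie right of 0 in these fits and Bub1 lies far left.

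The rest of the cell cycle machinery was read from 5 further lists, of which 146 genes were measured. These lists were chosen with earlier results of these data known, so their shares below are no independent test. Over all hours 11 of the 146 differed by state (7.53% against 5.59% of all probe sets), 8 higher and 3 lower in deprived mice. Without array 27 there were 19, of which 8 were higher and 11 lower, against 2193 of all 35556 probe sets. Without the 16 arrays there were 12, of which 9 were higher and 3 lower (8.22% against 8.63% of all probe sets). Of the related genes named below as called by state, all but Chaf1b were also called without the 16 arrays.

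Among 19 genes listed as inhibitors and quiescence genes, a mixed list that also holds Mdm2 and Wee1, 3 were called by state. Cdkn1a, encoding the inhibitor p21, had a median of 10.85 at lights on. Its medians at 3 h, 6 h, 9 h and 12 h were 10.70, 10.39, 10.21 and 10.66 in sleeping mice and 11.38, 11.25, 10.82 and 11.07 in deprived mice. It was higher in deprived mice by 0.56 ± 0.09 (adjusted p 9.54e-06). Cdkn2c, encoding an inhibitor of the cyclin D kinases, was lower, with a difference of -0.23 ± 0.04 (adjusted p 2.64e-05). Ccng1, a target of p53, was higher by 0.12 ± 0.03 (adjusted p 0.00354).

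In the list of G1 cyclins, kinases and E2F-Rb factors 2 of 25 were called by state, both higher in deprived mice. These were Rb1, which restrains E2F (0.12 ± 0.03, adjusted p 0.00185), and the repressor E2f6 (0.11 ± 0.03, adjusted p 0.00921). Of 16 checkpoint and repair genes 3 were called. The checkpoint kinases Chek1 (0.25 ± 0.06, adjusted p 0.00152) and Chek2 (0.17 ± 0.04, adjusted p 0.00123) were higher, and the helicase Blm (-0.20 ± 0.05, adjusted p 0.00222) was lower. Of 55 other G2 and M phase genes 2 were called, both higher, Ect2, which directs the contractile ring (0.26 ± 0.06, adjusted p 0.00286), and the condensin subunit Smc2 (0.19 ± 0.05, adjusted p 0.00575).

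Of 31 other S phase genes 1 was called by state, Chaf1b, a subunit of the chromatin assembly factor that follows the replication fork. Its levels at 3 h were 6.85, 7.05 and 7.36 in sleeping and 6.42, 6.69 and 7.08 in deprived mice. Over all hours it was lower in deprived mice, with a difference of -0.20 ± 0.05 (adjusted p 0.00781). It was -0.21 and did not pass without the 16 arrays (adjusted p 0.0176). Without array 27 Fen1, Rfc5, Rpa2 and Tk1 passed with it, so that 5 of the 31 were lower (2193 of all 35556 probe sets called). With all mice the adjusted p was 0.0189 for the flap nuclease Fen1, 0.0162 for the clamp loader subunit Rfc5 and 0.025 for the thymidine kinase Tk1.

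Over deprivation 9 of the 31 S phase genes rose and 0 fell (29% called against 8.41% of all probe sets). Without array 27, 6 rose, and without the 16 arrays 10, while 3319 and 3418 of all 35556 probe sets were called. Over sleep 3 rose (9.68% against 5.44% of all), Chaf1b (0.38 ± 0.07), the helicase partner Gins4 (0.21 ± 0.04) and the origin protein Orc6 (0.23 ± 0.05). The median of the list was 0.09 over sleep and 0.15 over deprivation. Of the 55 other G2 and M phase genes 1 rose over sleep, the motor Kif18a (0.55 ± 0.11), and 3 over deprivation (Kif18a, Cdc25b and Spc24), of which Kif18a alone was called without array 27. These are 1.82% and 5.45% of the list, below the shares of all probe sets.

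Wee1, the kinase that holds Cdk1 inactive and a known target of the circadian clock, had levels of 7.98, 8.21 and 9.88 at lights on and of 9.30, 9.75 and 10.05 after 12 h of sleep. Its fitted rise was 1.60 ± 0.17 over sleep (adjusted p 4.92e-09) and 1.36 ± 0.17 over deprivation (adjusted p 3.35e-07). With it, 7 of the 19 inhibitor genes were called over sleep, 5 up and 2 down, and 6 over deprivation, 5 up and 1 down. These are 36.8% and 31.6% of the list, against 5.44% and 8.41% of all probe sets, in a list not chosen blind to these data. Trp53inp1, a p53 target, rose by 0.61 ± 0.10 over sleep and the stress gene Gadd45b by 0.34 ± 0.06. Lin9, of the complex that switches cell cycle genes between repression and activation, rose by 0.67 ± 0.10 over sleep and 0.65 ± 0.10 over deprivation. Tfdp2, a partner of E2F, rose by 0.37 ± 0.05 over sleep, and Mycn had a change of -0.37 ± 0.07, a fall. Of the 16 checkpoint and repair genes Fanca rose over sleep (0.27 ± 0.06), and Exo1 and Rad54l over deprivation (6.25% and 12.5% of the list). Rad54l was not called without the 16 arrays. With the runs as a block none of the 146 had a slope past the threshold.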

How the data were processed

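Lung RNA of 78 mice was hybridised by the authors to Affymetrix Mouse Gene 1.0 ST arrays, 1 a mouse. The deposited values are log2 intensities that the authors made with RMA in R/oligo over all lung arrays together (versions are not given in the sources used here). They were deposited without a decimal point, so the column is named other, and the point was restored (values 2.27 to 13.85). Of 35556 probe sets 21218 had 1 gene symbol, 1881 several and 12457 none. Tests used limma 3.58.1 in R 4.3.3 with Benjamini-Hochberg adjustment over all probe sets and a threshold of 0.01. They were state over all hours without a time term, state at each hour, the change of that difference, linear slopes from baseline (given per 12 h), and a test among the 9 groups. The fits were tested on simulated data. The number of arrays limits the precision, and no source used here gives replicates other than mice. Members named are those called in a test, the 6 with the smallest p by state and the 4 with the smallest p among groups. In each related list they are those with the smallest p, 4 by state and 3 by slope over sleep. Other genes named were chosen after their values were seen. Members and lists were chosen with earlier results of these data known. Alternatives left out array 27 or the 16 arrays, used runs as a block, time as a factor, a mean of at least 6, array weights, trended robust variances or any probe set of a gene.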

Additional observations from a re-analysis of the deposited data

Results flagged for a closer look

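Within each of the 9 groups, the mean of the members and the 9 named members were checked for a mouse far from the others, 90 checks in all, of which chance gives about 1 in 20. There were 17 such mice. Array 27, deprived for 12 h, was the highest of its group in 8 of them, with 1.39 for the mean of the members, 7.25 for Aurka, 8.15 for Bub1, 7.08 for Cenpf, 7.97 for Mcm3, 8.82 for Mcm6, 9.72 for Mcm7 and 7.20 for Ccne1.

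In 5 others the mouse is among those whose label is in doubt. Bub1 was lowest at 6.10 in a baseline mouse (array 36) and at 6.61 in a mouse deprived for 3 h (array 46). Mcm4 was highest at 8.44 in a mouse deprived for 3 h (array 70). Mcm6 was highest at 8.87 in a mouse that slept for 9 h (array 28) and lowest at 7.90 in a mouse deprived for 6 h (array 74).

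The other 4 have undoubted labels. The mean of the members was lowest at -0.22 after 6 h of sleep (array 79). Cenpf was highest at 5.65 after 6 h of deprivation (array 71), Cdc6 at 5.93 after 6 h of sleep (array 62), and Ccne1 at 6.86 after 3 h of sleep (array 76).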

How the results depend on the processing

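With all mice, 0 members were called by state, at 3 h and at 12 h. By state 1 was called without the 16 arrays, without array 27 and the 16 arrays, with the runs as a block, and with array weights. Of all 35556 probe sets these fits called 3069, 3327, 2791 and 3210, against 1987 with all mice. At 3 h 1 was called without array 27 and the 16 arrays, and at 12 h 1 without the 16 arrays and 1 with array weights. Of all probe sets these fits called 2777, 157 and 410. The slope over sleep had 2 calls, and 5 without the 16 arrays (with or without array 27). It had 0 with the runs as a block, 4 at a mean of at least 6 and 6 with array weights. Of all 35556 probe sets 1933 were called with all mice, 2188 without the 16 arrays, 0 with the block and 3633 with weights. At a mean of at least 6, which leaves out 9 members, 1993 of 20704 were called. The slope over deprivation had 4 calls, and 8 without array 27 and the 16 arrays, 0 with the block and 7 with weights. Of all 35556 probe sets the same fits called 2990, 3733, 0 and 5126. The 146 related genes had 11 calls by state, and 19 without array 27, 21 without it and the 16 arrays, and 17 with weights. Of all 35556 probe sets the same fits called 1987, 2193, 3327 and 3210. The other 62 counts were within 1.5 times. The cause was not tested. Leaving out both sets of arrays was chosen after seeing the data.

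Among single members 151 values kept direction and side of the threshold, 21 passed it, 6 no longer did and 11 changed sign. The slope of Cenpf over sleep (0.00) was -0.0378 without the 16 arrays (with or without array 27), -0.164 with the block and -0.0160 with weights. With the block the slopes over sleep were -0.0260 for Mcm7 and -0.0512 for Cdc6. Over deprivation Aurka (0.01) had -0.112 without array 27, -0.15 without it and the 16 arrays, and -0.0218 with weights, and Cenpf (0.10) had -0.0638 and -0.128 in the first pair of these. None of these had passed. The test among the 9 groups was not run with the block, in which it cannot be estimated. No paired analysis was possible because replicate numbers were given in accession order and pair no mice.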
